A study of Mus musculus with 12 samples.

Results

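Prostaglandin E2 is made and cleared by a short chain of enzymes and acts through a small family of receptors, and 10 mouse genes of that chain were followed here in RNA of the proximal colon, compared between APC Min/+ and WT animals. They were chosen by name, as the genes for the cyclooxygenases (Ptgs1 and Ptgs2), the terminal prostaglandin E synthases (Ptges, Ptges2 and Ptges3), the dehydrogenase that inactivates the product (Hpgd) and the EP receptors (Ptger1, Ptger2, Ptger3 and Ptger4). All 10 were found among the 38924 genes listed for each mouse, of which 28449 had a count in at least 1 mouse, and all 10 passed the filter on low counts (10 counts or more in 3 or more mice), as did 20311 genes in all. Messenger RNA was measured, not prostaglandin or enzyme activity.

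RNA came from 6 APC Min/+ and 6 WT mice. All 12 were 6-week-old female C57BL/6 mice with no treatment named in the labels. APC Min/+ mice carry a germline nonsense mutation in 1 of their Apc copies in every cell and develop intestinal adenomas with age, while both copies are intact in WT mice. The genotypes were kept in separate cages, and the mice came in 3 shipments that the labels do not assign, so cage and genotype cannot be told apart and no comparison within a shipment could be made.

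Arachidonic acid is freed from membrane lipids by phospholipases and turned into prostaglandin H2 by a cyclooxygenase. Ptgs1 encodes the isozyme present in many resting tissues, and Ptgs2 the isozyme that is induced by growth factors and inflammatory signals. A terminal synthase then makes prostaglandin E2, which signals through G protein-coupled EP receptors, and Hpgd removes it in the epithelium. In the intestine this pathway is known for its part in epithelial repair and in adenoma growth, and cyclooxygenase inhibitors reduce polyp number in patients and mice with Apc mutations.

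The sequences around the starts of 4 of these genes are shown because they represent the paired cyclooxygenases (Ptgs1 and Ptgs2), the member with the highest level (Hpgd) and the member with the lowest p-value between genotypes (Ptger3). Each is 280 bases from the RefSeq promoter table (build GRCm38.p6), 5′ to 3′ on the strand of the gene, with the first transcribed base in RefSeq counted as 1 and the base before it as -1. For Ptgs1 and Ptgs2 that base is also the start of the gene in the GENCODE annotation used for the positions further on, whereas the GENCODE start lies 33 bases downstream of it for Hpgd and 16 bases downstream for Ptger3. A window was held for 9 of the 10 members. Capitals mark matches to the TATA box letters TATAAA, the E-box letters CACGTG, the letters TGACG that form the core of a cyclic AMP response element, and the GC box letters GGGCGG, all searched on both strands. The windows lie at chr2:36230176-36230455 (forward) for Ptgs1, chr1:150099781-150100060 (forward) for Ptgs2, chr8:56294302-56294581 (forward) for Hpgd and chr3:157566626-157566905 (forward) for Ptger3.
Ptgs1: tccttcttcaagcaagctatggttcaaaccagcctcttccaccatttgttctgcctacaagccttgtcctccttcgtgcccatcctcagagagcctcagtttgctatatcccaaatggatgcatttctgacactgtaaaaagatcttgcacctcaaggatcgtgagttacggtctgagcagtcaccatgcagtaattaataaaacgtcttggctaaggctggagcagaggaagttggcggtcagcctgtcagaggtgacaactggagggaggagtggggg
Ptgs2: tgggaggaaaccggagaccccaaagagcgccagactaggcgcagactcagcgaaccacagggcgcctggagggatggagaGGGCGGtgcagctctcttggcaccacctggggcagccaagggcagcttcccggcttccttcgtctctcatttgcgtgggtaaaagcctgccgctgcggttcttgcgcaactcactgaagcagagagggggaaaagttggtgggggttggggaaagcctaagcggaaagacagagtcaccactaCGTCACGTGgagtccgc
Hpgd: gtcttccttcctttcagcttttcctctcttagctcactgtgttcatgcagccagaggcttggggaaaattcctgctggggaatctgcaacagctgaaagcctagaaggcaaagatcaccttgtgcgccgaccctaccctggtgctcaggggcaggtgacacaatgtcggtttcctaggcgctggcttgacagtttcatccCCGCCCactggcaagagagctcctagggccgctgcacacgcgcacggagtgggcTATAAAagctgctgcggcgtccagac
Ptger3: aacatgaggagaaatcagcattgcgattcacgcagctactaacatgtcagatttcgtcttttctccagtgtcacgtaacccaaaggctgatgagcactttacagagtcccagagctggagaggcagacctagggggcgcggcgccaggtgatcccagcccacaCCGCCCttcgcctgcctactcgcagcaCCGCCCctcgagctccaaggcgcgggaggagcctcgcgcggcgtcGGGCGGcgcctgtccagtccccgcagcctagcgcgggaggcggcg

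The Ptgs1 window held none of these letters, whereas the Ptgs2 window held a GC box from -170 to -165 and, just past the start, the response element core on the reverse strand (bases 14 to 18) that overlaps an E-box (bases 17 to 22). In the Hpgd window, TATAAA stood at bases 5 to 10 from the RefSeq start, which is -29 to -24 from the GENCODE start, and a GC box on the reverse strand lay from -50 to -45 of the RefSeq start. The Ptger3 window held 3 GC boxes. Of 32851 windows of the same length, 13.102% held TATAAA, 6.79% CACGTG, 19.9% TGACG and 34.7% GGGCGG. A match describes the letters only. The 280 bases were 49.6% G or C in Ptgs1 and 61.4% in Ptgs2.

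Levels were compared between genes as RPKM (counts per kilobase of the gene length given with the counts and per library size, scaled by TMM), and levels of 1 gene between mice as CPM on the same scaling but without the length. Hpgd stood far above the other members at 222.4 ± 89.9 RPKM (SD, n = 12), which lies above 98.9% of the genes tested. Ptges3 followed at 41.3 ± 4.40 RPKM, Ptges2 at 13.6 ± 2.25 RPKM and Ptgs1 at 8.96 ± 1.55 RPKM. Ptger4, at 4.72 ± 1.20 RPKM, was the most abundant receptor. Ptger3 (2.22 ± 0.679 RPKM), Ptgs2 (1.95 ± 0.332 RPKM), Ptges (1.67 ± 0.597 RPKM) and Ptger1 (1.30 ± 0.285 RPKM) lay close together, and Ptger2 was lowest at 0.692 ± 0.105 RPKM. The first of each neighbouring pair was the higher one in all 12 mice from Hpgd down to Ptges2, from Ptgs1 to Ptger3, and between Ptger1 and Ptger2. Ptges2 exceeded Ptgs1 in 11 of 12 mice. Ptger3 exceeded Ptgs2 in only 7 of 12 mice, so the order of these neighbours was not separated from the spread between mice, and Ptges exceeded Ptger1 in 9 of 12.

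**Figure D1:**
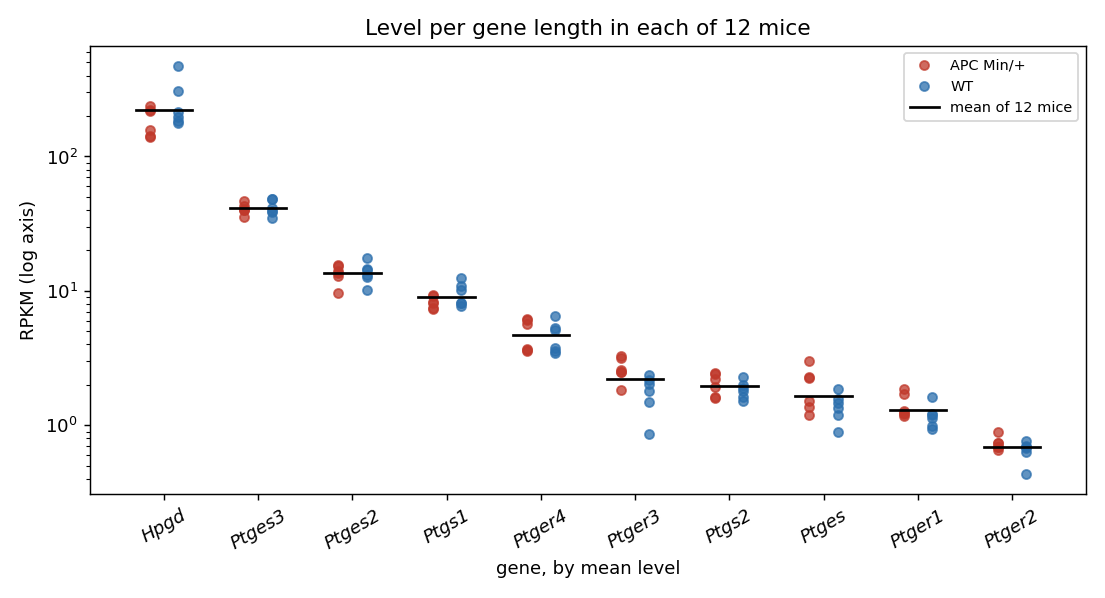
Level of each of the 10 genes in RPKM on a log axis, 1 point per mouse (6 APC Min/+ in red, 6 WT in blue), with the mean of the 12 mice as a bar. Hpgd (mean 222.4 RPKM) lies far above the other members, and Ptger2 (0.692 RPKM) is lowest.

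Within each mouse, the resting isozyme was the more abundant cyclooxygenase. The ratio of Ptgs1 to Ptgs2 in RPKM ran from 3.04 to 4.96 among APC Min/+ mice and from 4.07 to 6.29 among WT mice, so the ranges overlapped. Hpgd exceeded the sum of both cyclooxygenases by 12.4 to 22.8 times in APC Min/+ mice and by 14.8 to 37.0 times in WT mice, with the highest ratio in WT mouse M17_1. Among the receptors, Ptger4 made up 49.5% ± 10.3 (SD, n = 6) of the summed receptor RPKM of APC Min/+ mice and 55.7% ± 7.98 (SD, n = 6) of that of WT mice, and it was the highest of the receptors in all 12 mice. Ptger3 followed with 27.8% ± 6.61 (SD, n = 6) and 21.6% ± 6.18 (SD, n = 6), respectively. Among the terminal synthases, Ptges3 held 69.0% to 77.1% of the summed synthase RPKM and Ptges, the inducible microsomal enzyme, only 1.77% to 5.89%.

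Total counts on genes ranged from 50313805 to 197914821 per mouse, and the members' own counts ranged from 132 (Ptger2) to 87406 (Hpgd) in a mouse. At each member's mean count over the 12 mice, counting alone gives a coefficient of variation between 0.499% and 5.98% of its level. The fit gave 15.9% to 31.4% between mice, so counting added little to the spread between mice. Apc itself averaged 192.2 CPM (SD 16.97, n = 6) among APC Min/+ mice and 186.2 CPM (SD 30.7, n = 6) among WT mice, which does not check the labels because counts per gene do not separate the alleles. The label gives colonic mucosa, and epithelial markers were high, with a sum over the 6 listed markers of 4642 to 8874 CPM. The 6 smooth muscle markers also summed to between 4391 and 6959 CPM, so RNA of the muscle layers was present as well. APC Min/+ mice M10_2 and M13_1 stood apart from the rest. Their summed level of Hoxa13, Hoxb13, Hoxd13 and Hoxd12, genes of the distal colon, was 468.1 and 554.3 CPM against 1.03 to 2.93 CPM in the other 10 mice, and the sum of the 5 surface colonocyte markers was 3694 and 5731 CPM against 16820 to 37320 CPM. Car1 dominated that sum, with a mean of 18480 CPM over all mice against 108.4 to 1406 CPM for the other markers. For Slc26a3, Aqp8 and Ceacam20 the lowest APC Min/+ values (892.0, 180.6 and 76.69 CPM) were above the lowest WT values (438.1, 4.80 and 69.06 CPM). Neither M10_2 nor M13_1 was thus the lowest mouse in those markers. The lowest Krt20 was 533.8 CPM in APC Min/+ mice and 984.6 CPM in WT mice. Where the result moved most with M10_2 and M13_1, it is given with and without them. Because both are APC Min/+, their position and the genotype cannot be told apart in the 12-mouse fit. In whole tissue, fewer cells of a type and less RNA per cell cannot be told apart.

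Whether the genotypes differ in each gene was asked with edgeR's quasi-likelihood test across all 20311 genes. In none of the 10 members did the difference pass a false discovery rate of 0.05 (0 of 10, against 0.0% of all genes tested), and their adjusted p-values ran from 0.908 to 0.975. By unadjusted p under 0.05, 1 of the 10 members was past the threshold (Ptger3), against 5.27% of all genes tested in both directions and 3.46% in the direction of a higher level in APC Min/+ mice. DESeq2 and edgeR's likelihood ratio test likewise called 0 of the 10 at a false discovery rate of 0.05 and 1 at an unadjusted p under 0.05. The ranges of the 6 and 6 mice overlapped in all 10 members, as in nearly all genes tested, where only 0.118% did not overlap. The fitted level was higher in APC Min/+ mice for 6 members and lower for 4, with a median log2 fold change of 0.09 against -0.0077 over all genes tested. For 8 of the 10 members the 95% interval of the fold change held no 2-fold difference in either direction. The exceptions were Hpgd and Ptger3. The p-values measure the spread between these mice, which the labels name as separate animals.

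**Figure D2:**
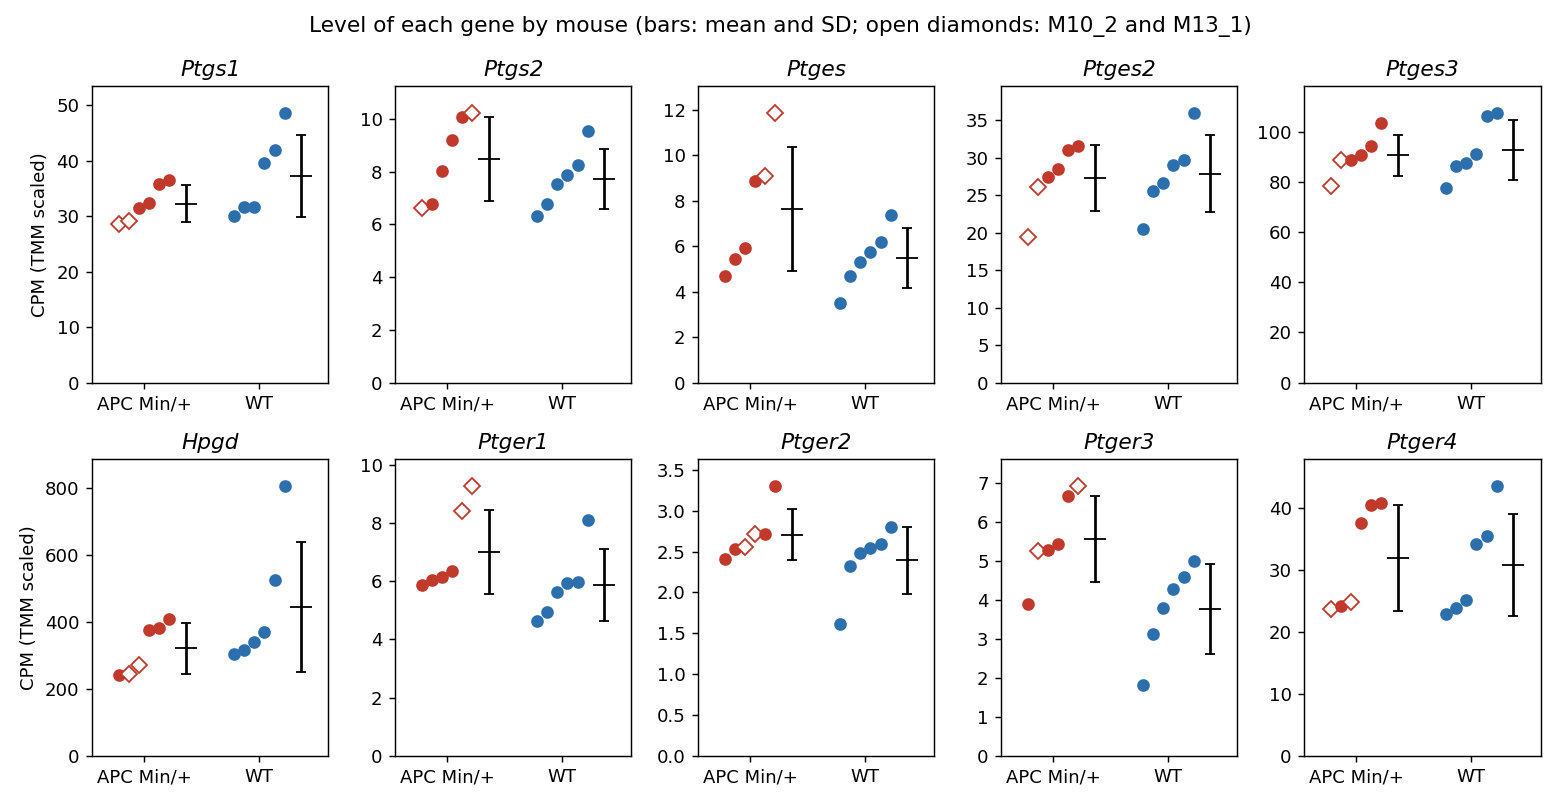
Level of each gene in CPM (TMM scaled, linear axes from 0), 1 point per mouse, with the mean and SD of 6 APC Min/+ (red) and 6 WT mice (blue) beside the points and M10_2 and M13_1 as open diamonds. The genotypes overlap in all 10 panels. The APC Min/+ points of Ptger3 lie above the WT points in 5 of 6 mice.

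The cyclooxygenases come first in the chain. Ptgs1 (ENSMUSG00000047250.7, chromosome 2, 36230426 to 36252272, forward strand, GENCODE M21 on GRCm38) was counted in the APC Min/+ mice at 28.6 CPM at the lowest, 31.9 at the median and 36.5 at the highest. In the WT mice the lowest, median and highest values were 30.04, 35.7 and 48.6 CPM. M10_2 and M13_1, at 28.6 and 29.09 CPM, lay below every WT mouse and the other 4 APC Min/+ mice inside the WT range, while WT mice M17_2, M17_1 and M18_2a, at 48.6, 42.05 and 39.7 CPM, exceeded every APC Min/+ mouse. Its log2 fold change was -0.21 (standard error 0.128, adjusted p = 0.908, edgeR), and it was -0.13 without M10_2 and M13_1 and -0.12 without WT mouse M17_2 alone.

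Ptgs2 (ENSMUSG00000032487.7, chromosome 1, 150100031 to 150108227, forward strand) was low and even. In the APC Min/+ mice it had 6.61, 8.596 and 10.204 CPM at the lowest, median and highest, and in the WT mice 6.33, 7.70 and 9.52 CPM. M13_1 and M2_A, both APC Min/+, were the highest mice, at 10.204 and 10.06 CPM, and the other APC Min/+ mice lay within the WT range. Between genotypes the log2 fold change was 0.14 (standard error 0.145, adjusted p = 0.910, edgeR) with a 95% interval from -0.18 to 0.45, that is a fold change between 0.884 and 1.37. Left out singly, M13_1 took the log2 fold change to 0.08 and M18_2a took it to 0.20.

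Of the terminal synthases, Ptges (ENSMUSG00000050737.11, chromosome 2, 30889471 to 30929863, reverse strand), the microsomal enzyme that is induced together with Ptgs2, varied most. The APC Min/+ mice had 5.43 (M8_2), 11.8 (M10_2), 5.94 (M18_2b), 9.08 (M13_1), 8.87 (M2_A) and 4.70 CPM (M20_1). The WT mice had 5.75 (M17_2), 6.21 (M19_1), 7.40 (M16_1), 5.29 (M18_2a), 3.52 (M17_1) and 4.69 CPM (M18_b). M10_2, M13_1 and M2_A exceeded every WT mouse and the other 3 APC Min/+ mice lay inside the WT range. The log2 fold change was 0.48 (standard error 0.239, adjusted p = 0.908, edgeR). It fell to 0.19 (standard error 0.224) when M10_2 and M13_1 were left out, and to 0.31 when M10_2 alone was left out.

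Ptges2 (ENSMUSG00000026820.3, chromosome 2, 32395896 to 32405772, forward strand) and Ptges3 (ENSMUSG00000071072.6, chromosome 10, 128058954 to 128077272, forward strand), a cytosolic synthase that is also a co-chaperone of heat shock protein HSP90, were more even between mice. In APC Min/+ mice Ptges2 averaged 27.3 ± 4.41 CPM and Ptges3 90.6 ± 8.17 CPM (SD, n = 6 each). The WT averages were 27.9 ± 5.10 CPM and 92.6 ± 11.8 CPM (SD, n = 6 each). Both log2 fold changes were -0.03 (standard errors 0.143 and 0.103), and both turned positive when M10_2 and M13_1 were left out (0.09 and 0.02) or when no normalization factors were used (0.02 and 0.02). Ptges3 has a processed pseudogene and a paralog in the genome, Ptges3l, with which reads may be shared, so its level is uncertain to that extent.

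Hpgd (ENSMUSG00000031613.8, chromosome 8, 56294585 to 56321043, forward strand) encodes the dehydrogenase that starts the breakdown of prostaglandin E2. The APC Min/+ mice had 241.5 (M8_2), 245.0 (M10_2), 381.6 (M18_2b), 272.5 (M13_1), 376.4 (M2_A) and 408.8 CPM (M20_1). In the WT mice it was at 370.0 (M17_2), 317.2 (M19_1), 340.2 (M16_1), 525.4 (M18_2a), 805.1 (M17_1) and 304.9 CPM (M18_b). M8_2, M10_2 and M13_1 lay below every WT mouse, and M17_1 and M18_2a lay above every APC Min/+ mouse. Among the remaining 7 mice, which these same Hpgd values set apart, the 3 APC Min/+ mice lay above the 4 WT mice. Setting aside the lowest APC Min/+ mice and the highest WT mice favours that order, so nothing about genotype can be read from it.

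The log2 fold change of Hpgd was -0.47 (standard error 0.250, adjusted p = 0.908, edgeR), a fold change of 0.723 with a 95% interval from 0.498 to 1.05. It was -0.21 (standard error 0.183) without WT mouse M17_1, and -0.07 (standard error 0.175) without both M17_1 and M18_2a. Both are the highest mice for Hpgd and were left out together after seeing the data. Leaving them out makes a lower level in APC Min/+ mice smaller by construction. No fit left out all of the low mice M8_2, M10_2 and M13_1. M17_1 and M18_2a had the lowest values within their genotype, -0.65 and -0.30, on an index of how far GC-rich genes deviate from GC-poor ones in a library. The index lay between -0.32 and 0.30 in the APC Min/+ mice, and M2_A, the lowest of them, had Hpgd at 376.4 CPM. It was highest of all mice in M8_2 (0.304) and M10_2 (0.297), which had the lowest Hpgd (241.5 and 245.0 CPM). WT mouse M17_2, next at 0.277, had Hpgd at 370.0 CPM. Hpgd transcripts are poor in GC (40.5%, at percentile 3.3 of the expressed genes). With the index as a covariate the log2 fold change of Hpgd was -0.26 (standard error 0.158). Without M10_2 and M13_1, it was -0.33 with no covariate and -0.14 (standard error 0.153) with the index as a covariate. The part of the index in the Hpgd difference was not tested.

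**Figure D3:**
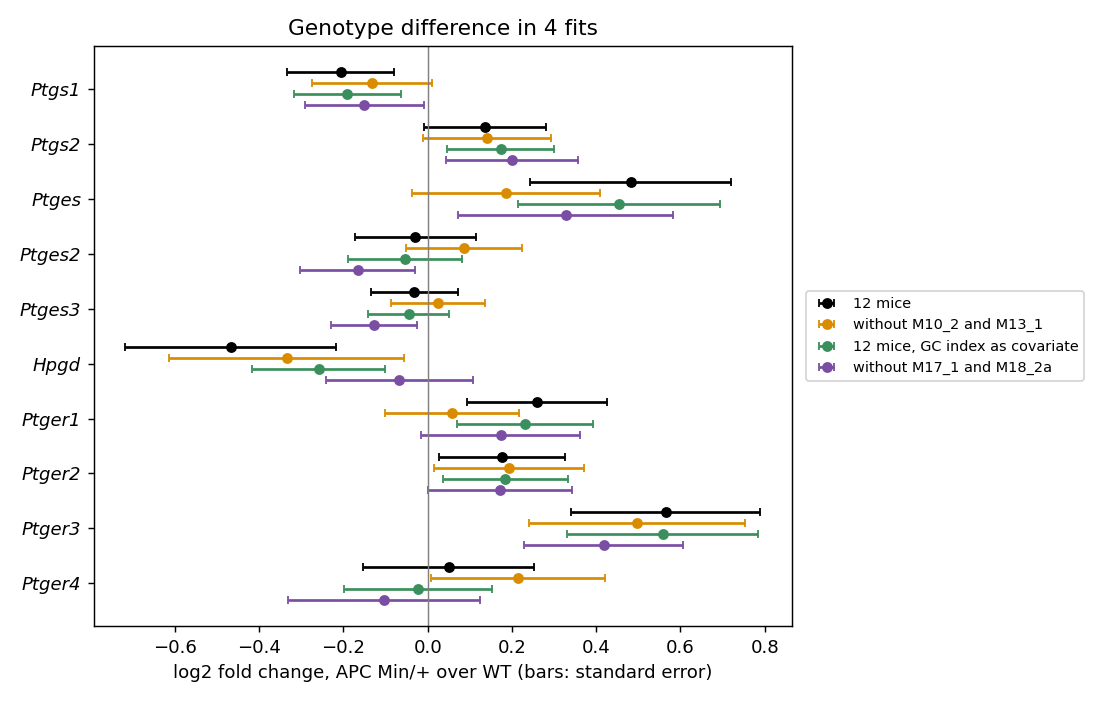
Log2 fold change of each gene, APC Min/+ over WT, with its standard error, in the fit of 12 mice (black), without M10_2 and M13_1 (orange), with the GC index as a covariate (green) and without M17_1 and M18_2a (purple). Hpgd moves from -0.47 to -0.07 between the black and purple points, Ptges from 0.48 to 0.19 between black and orange, and Ptger3 stays between 0.42 and 0.56. M17_1 and M18_2a are the highest mice for Hpgd and were left out after seeing the data.

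The EP receptors couple to different G proteins. Ptger1 signals through calcium, Ptger2 and Ptger4 raise cyclic AMP, and Ptger3 mainly lowers it. Ptger4 (ENSMUSG00000039942.9, chromosome 15, 5206661 to 5244187, reverse strand), the receptor best known in colonic epithelium and in immune cells, averaged 31.9 CPM among APC Min/+ mice (SD 8.52, n = 6) and 30.8 CPM among WT mice (SD 8.21, n = 6). Its 12 values fell apart in the same way in both genotypes. M10_2, M13_1 and M2_A of the APC Min/+ mice and M16_1, M18_2a and M17_1 of the WT mice lay between 22.9 and 25.2 CPM, and the other 3 of each genotype between 34.2 and 43.5 CPM. At 0.05, the log2 fold change was under its standard error (0.202, adjusted p = 0.971 from edgeR), and its sign changed when single mice were left out. It was 0.21 without M10_2 and M13_1 and -0.10 without M17_1 and M18_2a. It shares 1015 exon bases with a pseudogene and 82 with Ttc33, both on the opposite strand.

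Ptger3 (ENSMUSG00000040016.10, chromosome 3, 157566892 to 157645888, forward strand) had the largest fitted difference of the 10. The APC Min/+ mice had 3.88 (M8_2), 5.25 (M10_2), 5.44 (M18_2b), 6.91 (M13_1), 6.67 (M2_A) and 5.29 CPM (M20_1). The WT mice had 3.79 (M17_2), 4.99 (M19_1), 4.58 (M16_1), 4.29 (M18_2a), 1.82 (M17_1) and 3.14 CPM (M18_b). Thus 5 of 6 APC Min/+ mice exceeded every WT mouse, and M8_2 lay inside the WT range. The log2 fold change was 0.56 (standard error 0.225), a fold change of 1.48 with a 95% interval from 1.06 to 2.07, and its adjusted p was 0.908 (edgeR). In an exact permutation test over the 12 mice on log2(CPM + 0.5), two-sided and chosen after seeing the data, the genotypes differed by 0.54 with an exact p = 0.0216 before any adjustment, where the design allows no p under 0.00216. The same exact test gave p of 0.121 or more for each of the other 9 members.

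When the mice were left out singly, the fitted difference of Ptger3 ran from 0.42 (without M17_1) to 0.66 (without M19_1) on the log2 scale, and its unadjusted p in edgeR was under 0.05 in 9 of 12 fits. The exceptions were the fits without M13_1, M2_A or M18_b. Without both M10_2 and M13_1 the log2 fold change was 0.50 (standard error 0.255) and the unadjusted p was over 0.05. Over all 12 mice, the summed level of the 5 fibroblast markers was 1090 to 1457 CPM in APC Min/+ mice and 842.3 to 1274 CPM in WT mice, with none of the 5 under 1 CPM. WT mouse M17_1 was lowest both in this sum and in Ptger3. The group means differed most in Col1a1 (222.0 and 129.7 CPM in APC Min/+ and WT mice) and Col1a2 (351.3 and 226.4 CPM). Pdgfra (83.4 and 80.5 CPM) and Lum (121.1 and 115.1 CPM) differed little, and Dcn went the other way (483.0 and 513.6 CPM). The part of the fibroblast markers in the Ptger3 difference was not tested.

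Ptger1 (ENSMUSG00000019464.5, chromosome 8, 83666678 to 83672753, forward strand) was at 5.86, 6.26 and 9.27 CPM at the lowest, median and highest of the APC Min/+ mice and at 4.63, 5.79 and 8.11 CPM in the WT mice. M10_2 and M13_1 (9.27 and 8.43 CPM) were the highest of all mice, and the 4 further APC Min/+ animals ran only from 5.86 to 6.36 CPM. The log2 fold change of 0.26 (standard error 0.166, adjusted p = 0.908, edgeR) fell to 0.06 without them. Ptger2 (ENSMUSG00000037759.5, chromosome 14, 44988195 to 45003820, forward strand), the least abundant receptor, averaged 2.71 CPM (SD 0.314) and 2.39 CPM (SD 0.412) over 6 APC Min/+ and 6 WT mice. The fitted log2 difference was 0.18 (standard error 0.151, adjusted p = 0.910, edgeR), and it was 0.096 without WT mouse M18_b. It shares up to 246 exon bases with an antisense gene. The strand setting of the counting is not given in the sources used here, so for any of these receptors reads from the opposite strand could not be told apart.

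The wider list of 31 genes of the pathway held 29 that passed the filter, with Ptgds and Alox12b below it. None of the 29 was called at a false discovery rate of 0.05 (edgeR, lowest adjusted p 0.908; 0 also with DESeq2 and the likelihood ratio test), and 3 had an unadjusted p under 0.05, all with a higher level in APC Min/+ mice, against 3.46% of all genes tested in that direction and 5.27% in both. The fitted level was higher in 18 and lower in 11 of the 29, with a median log2 fold change of 0.04, which was -0.012 over the 28 genes tested without M10_2 and M13_1. The 3 genes are the phospholipases Pla2g4f and Pla2g5, which release fatty acids from membrane lipids, and Abcc4, which exports prostaglandins from cells. In all 3, M10_2 and M13_1 were the highest mice. The study's own edgeR analysis, whose test it does not name, listed Pla2g4f and Pla2g5 as differentially expressed, both higher in APC Min/+ mice.

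Pla2g4f was at 38.0 and 40.2 CPM in M10_2 and M13_1 and at 0.811 to 1.32 CPM in the other 10 mice, so that the log2 fold change of 3.71 (standard error 1.05) became -0.02 without them. Pla2g5 was at 18.7 and 12.1 CPM in these mice and at 1.69 to 2.52 CPM in the others, and its log2 fold change went from 1.79 (standard error 0.558) to 0.25. Abcc4 was at 22.7 and 22.98 CPM in them and at 6.02 to 14.8 CPM in the others, and its log2 fold change went from 0.59 (standard error 0.255) to 0.22. Without M10_2 and M13_1, 0 of the 28 genes of the list then tested and 0 of the 10 members had an unadjusted p under 0.05, against 1.59% of all genes tested in that fit.

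By role, the most abundant phospholipases of the list were Pla2g4a, the cytosolic enzyme that supplies most arachidonic acid for prostaglandins (64.5 ± 8.73 and 62.7 ± 13.4 CPM, SD, n = 6 each, in APC Min/+ and WT mice), and the secreted Pla2g10 (52.3 ± 21.7 and 45.2 ± 12.7 CPM). M10_2 and M13_1 were the highest mice for Pla2g10, at 84.0 and 75.4 CPM, and without them the APC Min/+ mean was 38.7 ± 4.99 CPM (SD, n = 4), below that of the WT mice. The leading genes among the other synthases were the carbonyl reductase Cbr1 (201.5 ± 34.8 and 220.2 ± 33.7 CPM) and the aldose reductase Akr1b3 (54.9 ± 22.01 and 41.6 ± 6.47 CPM), again with M10_2 and M13_1 highest for Akr1b3 (84.6 and 78.7 CPM), whose APC Min/+ mean without them was 41.6 ± 9.46 CPM (SD, n = 4), as in the WT mice. Slco2a1, the prostaglandin uptake transporter, was at 120.2 ± 36.2 and 107.8 ± 46.6 CPM, with the lowest value of 29.4 CPM in M17_1. Ptgr2, a prostaglandin reductase that acts after Hpgd, was at 96.0 ± 7.48 and 101.7 ± 8.25 CPM.

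Ptgfr and Ptgir, the leading genes among the receptors for the other prostanoids, averaged 1.27 and 0.770 RPKM over the 12 mice. Per length they were thus near the least abundant EP receptors, Ptger1 (1.30 RPKM) and Ptger2 (0.692 RPKM). Ptgfr, the receptor for prostaglandin F2alpha, was at 4.36 ± 2.297 and 6.72 ± 1.28 CPM (SD, n = 6 each), with M10_2 and M13_1 at 1.23 and 1.78 CPM, below the 4.91 to 8.17 CPM of the other 10 mice, and the APC Min/+ mean without them was 5.78 ± 0.778 CPM (SD, n = 4). The prostacyclin receptor Ptgir was at 2.60 ± 0.764 and 2.54 ± 0.671 CPM. In the lipoxygenase branch, the leukotriene A4 hydrolase Lta4h was the evenest gene named here (119.9 ± 4.75 and 118.0 ± 5.39 CPM), and Alox5 was at 3.86 ± 1.24 and 4.27 ± 0.428 CPM.

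**Figure D4:**
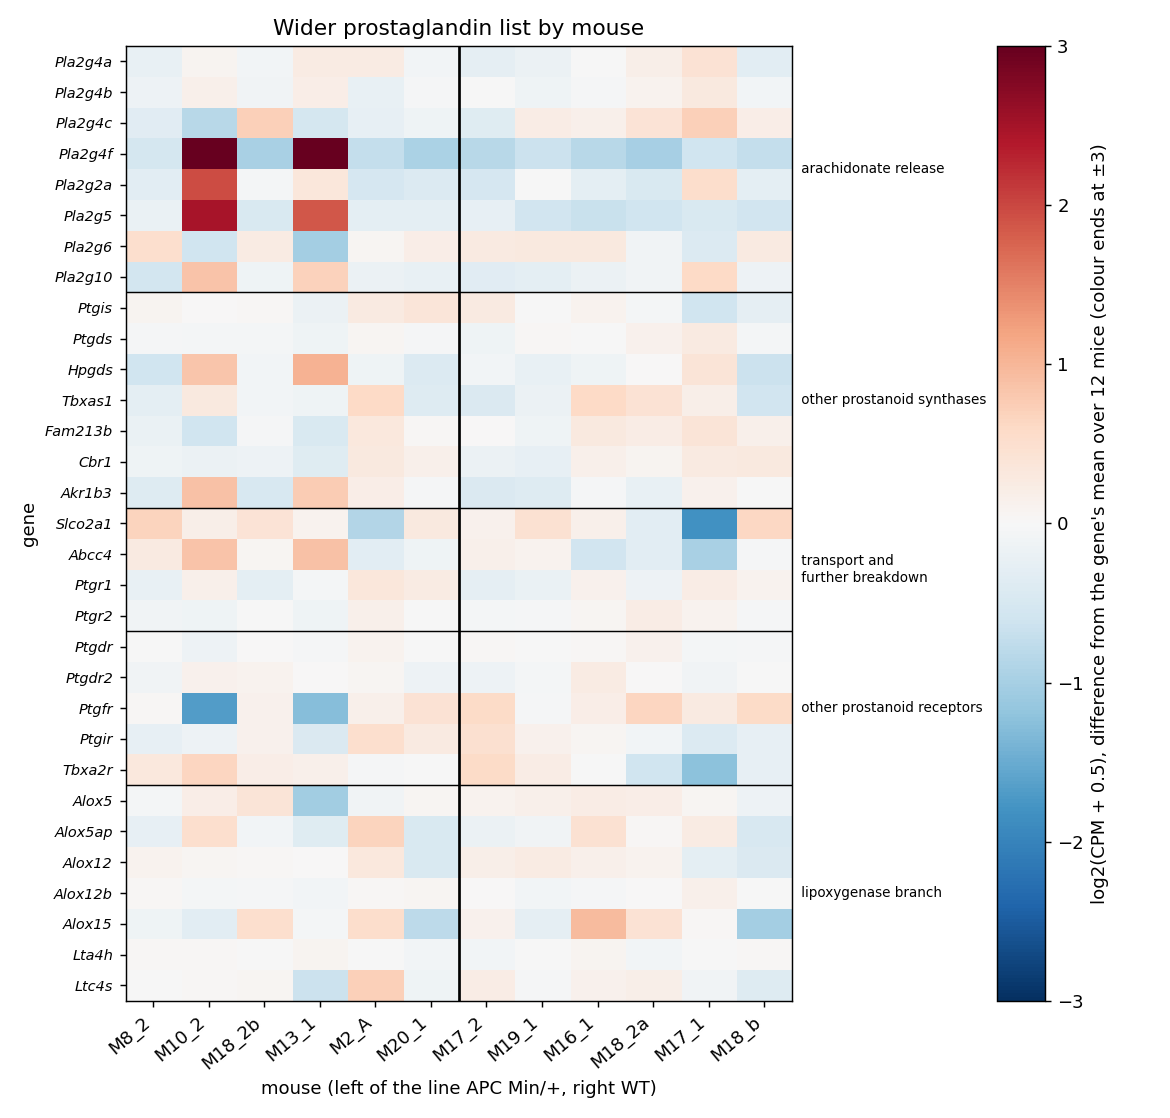
Level of the 31 genes of the wider list in each mouse, as the difference of log2(CPM + 0.5) from the gene's mean over 12 mice (red higher, blue lower, the colour ending at 3 in either direction), with APC Min/+ mice left of the line. The deepest red fields are Pla2g4f in M13_1 and M10_2, Pla2g5 in M10_2, the scarce Pla2g2a in M10_2 (3.17 CPM) and Pla2g5 in M13_1. Ptgfr is at its bluest in these mice, and the other 4 APC Min/+ mice resemble the WT mice in these rows.

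Which tissue compartment each member followed was described over the 10 mice other than M10_2 and M13_1, as the correlation of its log2(CPM + 0.5) with the mean of each of 14 marker lists. Of 140 pairs, 0 passed an adjusted p of 0.05 by Pearson's r (permutation test with 100000 resamples, two-sided, Benjamini-Hochberg over the 140), and 21 had an unadjusted p under 0.05. The same 10 libraries enter every pair. For each member, the list with the largest r in size is given as a description, and no pair can be read as established.

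Ptges2, a membrane-associated synthase, followed the surface colonocyte list (r = 0.92, permutation p = 0.00046, adjusted 0.0644, Spearman's rho 0.794 with permutation p = 0.00859 and adjusted 0.218). Without the 2 mice farthest from the list's median, r was 0.632. Hpgd went against the epithelium list (r = -0.91, permutation p = 0.00125, adjusted 0.0807, rho -0.782 with permutation p = 0.0105 and adjusted 0.218), and r was -0.89 without the 2 farthest mice. WT mouse M17_1, with the highest Hpgd, had the lowest epithelial sum of 4642 CPM, and its GC index was the lowest as well. Ptgs2 followed the smooth muscle list (r = 0.839, permutation p = 0.00286, adjusted 0.1, rho 0.867 with permutation p = 0.00211 and adjusted 0.206), with r of 0.687 without the 2 farthest mice. Ptges followed the macrophage list (r = 0.838, permutation p = 0.00173, adjusted 0.0807, rho 0.818 with permutation p = 0.00588 and adjusted 0.206), with r of 0.572 without the 2 farthest mice.

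The remaining members had weaker leading lists. These were enteric glia for Ptger1 (r = 0.776, permutation p = 0.0095, adjusted 0.142, rho 0.83 with permutation p = 0.00456 and adjusted 0.206) and for Ptger2 (r = 0.753, permutation p = 0.0135, adjusted 0.144, rho 0.648 with permutation p = 0.0489 and adjusted 0.526). Ptges3 had surface colonocytes (r = 0.758, permutation p = 0.00882, adjusted 0.142, rho 0.697 with permutation p = 0.0302 and adjusted 0.397). Ptger3 had fibroblasts (r = 0.757, permutation p = 0.0206, adjusted 0.18, rho 0.588 with permutation p = 0.082 and adjusted 0.638). Ptger4 went against B and plasma cells (r = -0.74, permutation p = 0.0193, adjusted 0.18, rho -0.697 with permutation p = 0.0301 and adjusted 0.397), and Ptgs1 against fibroblasts (r = -0.589, permutation p = 0.0681, adjusted 0.353, rho -0.6 with permutation p = 0.0733 and adjusted 0.604). Without the 2 mice farthest from the median of each list, r was 0.487 for Ptger1, 0.517 for Ptger2, 0.333 for Ptges3, 0.365 for Ptger3, -0.528 for Ptger4 and -0.475 for Ptgs1, so these relations rest in part on those mice, most of all for Ptges3 and Ptger3. With all 12 mice, r of Ptger1 with enteric glia was 0.197.

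**Figure D5:**
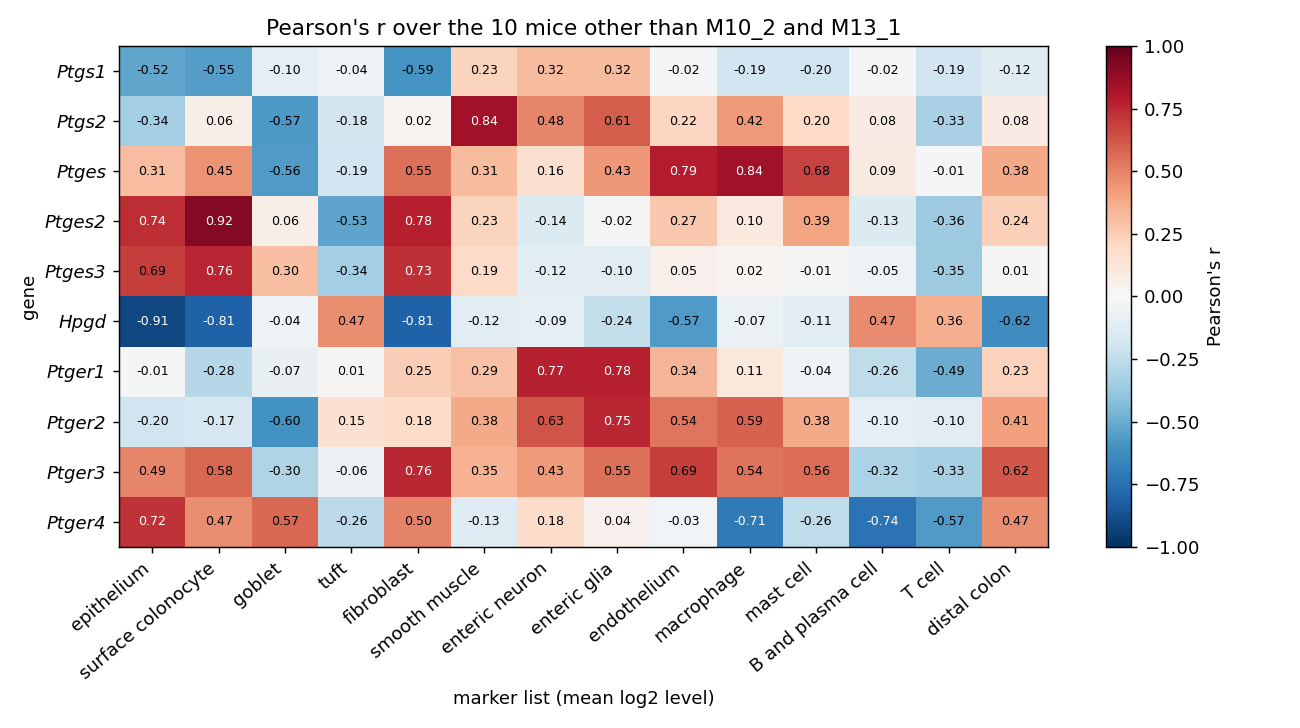
Pearson's r of each gene (rows) with the mean log2 level of each of 14 marker lists (columns) over the 10 mice other than M10_2 and M13_1, red for positive and blue for negative. The strongest fields are Ptges2 with surface colonocytes (0.92) and Hpgd with epithelium (-0.91), and none of the 140 passed an adjusted p of 0.05.

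The genes most like each member over the same 10 mice are named as a description with no test, each by Pearson's r of log2(CPM + 0.5) among all genes tested. For Ptgs1 they were Zfp488 (r = 0.97), Gm26236 and Six4, and for Ptgs2 Ackr4 (0.969), Kcnmb1 and Fermt2. For Ptges they were Tmem100 (0.953), Vsir and Tdrp, for Ptges2 D10Jhu81e (0.974), Slc25a11 and Uqcrfs1, and for Ptges3 Lefty2 (0.948), Hdhd3 and Nudt19. For Hpgd they were Txndc16 (0.982), Synj2bp and Tpd52l1. Among the receptors they were 2700033N17Rik (0.932), Klhdc8b and Wnt11 for Ptger1, S1pr3 (0.937), Cnrip1 and Rarb for Ptger2, Basp1 (0.933), Rcn2 and Ildr2 for Ptger3, and Aacs (0.953), Ung and Trp53rkb for Ptger4. Over all 12 mice the first genes were Rhbdl1 (0.904) for Ptgs1, Tmem47 (0.898) for Ptgs2, Irf5 (0.941) for Ptges, Hdhd3 (0.958) for Ptges2, Psmd11 (0.9) for Ptges3, Triqk (0.973) for Hpgd, Mycn (0.923) for Ptger1, Cnrip1 (0.921) for Ptger2, Rcn2 (0.938) for Ptger3 and Rrp12 (0.92) for Ptger4. Only Cnrip1 and Rarb for Ptger2, Rcn2 for Ptger3 and Ung for Ptger4 were among the leading 3 in both sets.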

How the data were processed

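Total RNA of proximal colon was sequenced in paired ends. Per the labels and the study's methods, the authors aligned reads to GRCm38.p2 with STAR 2.3.0 (version from the submitters' processing notes), assigned them to genes with featureCounts, and the deposited tables, 1 per mouse, hold raw counts and gene lengths. The strand setting is not given in the sources used here. Symbols and positions were taken from GENCODE M21. Groups follow the labelled genotype (6 and 6 mice). No 2 libraries of the same genotype agreed within sampling noise.

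CPM were scaled by TMM factors, and RPKM used the deposited lengths. Genes that reached 10 counts in 3 or more mice were tested with edgeR 4.0.16 (quasi-likelihood, Benjamini-Hochberg over 20311 genes) in R 4.3.3, after a check on simulated data. Standard errors are the log2 fold change over the square root of F. Intervals cover 95%. Alternatives were DESeq2 1.42.0, the likelihood ratio test, other factors and filters, each mouse left out, M10_2 and M13_1 left out, the name suffix as a covariate and, chosen after seeing the data, a GC index covariate, leaving out M17_1 and M18_2a, and an exact permutation test over the 12 mice. Correlations used a pseudocount of 0.5 CPM and 100000 resamples.

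Members, lists, markers and the pair M10_2 and M13_1 were chosen with earlier results of these data known. Named were all 10 members and, of the wider list, genes with an unadjusted p under 0.05 and the 2 with the highest mean CPM of each role. For likeness, the 3 genes with the highest r were taken.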

Additional observations from a re-analysis of the deposited data

Results flagged for a closer look

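Of 20 sets of 6 values (10 genes in 2 genotypes), 1 held a mouse far from the others by Dixon's criterion. Ptger2 in APC Min/+ mouse M2_A was at 3.299 CPM, and its gap to the next mouse, M18_2b at 2.72 CPM, was 0.654 of the range of the 6 APC Min/+ mice. Chance alone marks about 1 in 20 such sets.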

How the results depend on the processing

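No member and no gene of the wider list passed a false discovery rate of 0.05 in any of the 23 alternative fits, with adjusted p of the members between 0.548 and 1.0, and 0 of 140 correlation pairs passed under any of the 4 alternatives for them. Over all genes, the number called was 0 in the quasi-likelihood test, 29 with DESeq2 and 15 with the likelihood ratio test. The number of genes at an unadjusted p under 0.05 was 1071, and it was 317 with M10_2 and M13_1 left out, 478 with the GC index added to that, 524 with M17_1 and M18_2a left out, and between 523 (without M10_2) and 1828 (without M2_A) with each mouse left out. Members at an unadjusted p under 0.05 numbered 0 to 2.

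Signs changed for 3 members whose log2 fold changes were smaller than their standard errors. Ptges2 went from -0.03 to 0.016 with no normalization factors, 0.087 with M10_2 and M13_1 left out and 0.072 with the GC index added to that, and lay between -0.11 and 0.065 with each mouse left out. Ptges3 went from -0.03 to 0.016, 0.025 and 0.0083 under the same settings, and lay between -0.080 and 0.026. Ptger4 went from 0.05 to -0.022 with the GC index and -0.10 with M17_1 and M18_2a left out, and to 0.21 with M10_2 and M13_1 left out and 0.14 with the GC index added to that. It lay between -0.034 and 0.19 with each mouse left out. The other 7 members kept their direction. With no normalization factors the median log2 fold change of all genes moved from -0.0077 to 0.0408. No paired analysis was possible because replicate numbers were given in accession order only and tie no mouse of one genotype to one of the other.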

Other observations

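Hpgds, the hematopoietic prostaglandin D synthase, was at 17.9 and 20.6 CPM in M10_2 and M13_1 and at 6.13 to 12.98 CPM in the other 10 mice, while Ptgds, the lipocalin-type synthase, did not exceed 0.157 CPM in any mouse. Pla2g6, the calcium-independent phospholipase, went the other way, at 6.60 and 4.78 CPM against 7.53 to 14.7 CPM. The prostaglandin D2 receptors were barely counted, with Ptgdr at most 0.107 CPM and Ptgdr2 at most 0.167 CPM. These genes were chosen after their values were seen.

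Slco2a1 and Tbxa2r, the thromboxane receptor, were both lowest in WT mouse M17_1 (29.4 and 0.497 CPM), the mouse with the highest Hpgd (805.1 CPM) and the lowest Ptges and Ptger3 (3.52 and 1.82 CPM). M17_1 had the lowest GC index of the 12 (-0.65), and the part of the index in these values was not tested. The 4 mice with the highest B and plasma cell sums, M17_1, M2_A, M16_1 and M18_2a (783.9, 757.6, 598.6 and 281.5 CPM), were all among the 6 mice with low Ptger4, together with M10_2 and M13_1, whose sums were 89.8 and 68.4 CPM. WT mouse M18_b, next with a sum of 268.0 CPM, had the highest Ptger4 of all mice (43.5 CPM). Jchain carried most of these sums, with a mean of 289.9 CPM against 1.48 to 3.16 CPM for the other markers of the list.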
